A study of Homo sapiens with 6 samples.

Results

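The genes described here make up the pathway that prepares peptides for display on major histocompatibility complex (MHC) class I molecules. They were taken as the 10 genes B2M, HLA-E, TAP1, TAP2, TAPBP, ERAP1, ERAP2, PSMB8, PSMB9 and NLRC5, with every probe set that the platform annotation gives to such a gene alone. This gave 27 probe sets of the 54675 on the array. Of these, 16 probe sets, from 8 of the 10 genes, had a mean log2 value above 4 over all arrays and were tested, among 22085 tested probe sets in all. All 5 probe sets of ERAP2 and the only one of NLRC5 lay below that limit.

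The cells were Capan-1, an established human pancreatic carcinoma line, and total RNA was measured on Affymetrix arrays. There were 3 arrays from cells transfected with small interfering RNA against GNE (siGNE) and 3 from cells transfected with the allStar control. All cells were transfected a second time after 48 h and harvested 72 h later, and cRNA was made from 300 ng of RNA. GNE encodes the epimerase and kinase that starts sialic acid synthesis, and the study's title concerns its part in apoptosis of these cells. The labels name a single cell line and give neither the number of siRNA sequences nor whether replicate arrays stem from separate cultures, so p-values measure the spread between these arrays, which may be technical. The titles number the arrays 1 to 3 in each group, and a pair means the siGNE and the control array with 1 number.

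Class I molecules consist of a polymorphic heavy chain, the light chain beta-2 microglobulin and a short peptide. Proteasomes cut cytosolic proteins into peptides, the TAP transporter carries them into the endoplasmic reticulum, aminopeptidases there trim them, and tapasin holds empty heavy chains at the transporter until a peptide binds. Interferons raise many of these genes together, and loss of them is a known route by which tumour cells avoid cytotoxic T cells.

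Start regions of class I pathway genes are known for elements bound by interferon regulatory factors, NF-kB and NF-Y. The 4 windows are shown because later results concern these genes, interferon regulatory factors and NF-Y, while no NF-kB gene is reported. The sequences are RefSeq windows of GRCh38.p14, from 250 bases before to 50 bases after the start of the gene, and 8 of the 10 genes matched the table by symbol. Shown 5′ to 3′ on the gene's own strand are B2M (chr15:44711267-44711566, plus strand), TAP1 (chr6:32853655-32853954, minus strand), PSMB9 (chr6:32853942-32854241, plus strand) and TAPBP (chr6:33314029-33314328, minus strand). Capitals mark matches, on either strand, to the interferon-stimulated response element core (GAAA, any 2 bases, GAAA), the gamma-activated sequence TTCNNNGAA, the NF-kB form (GGGA, any 4 bases, CC) or the CCAAT box.
B2M: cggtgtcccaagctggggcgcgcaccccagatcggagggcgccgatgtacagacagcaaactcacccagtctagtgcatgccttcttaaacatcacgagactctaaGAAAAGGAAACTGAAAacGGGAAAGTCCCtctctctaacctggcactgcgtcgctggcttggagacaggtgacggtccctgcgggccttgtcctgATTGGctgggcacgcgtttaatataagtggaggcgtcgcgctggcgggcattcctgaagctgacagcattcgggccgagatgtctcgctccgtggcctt
TAP1: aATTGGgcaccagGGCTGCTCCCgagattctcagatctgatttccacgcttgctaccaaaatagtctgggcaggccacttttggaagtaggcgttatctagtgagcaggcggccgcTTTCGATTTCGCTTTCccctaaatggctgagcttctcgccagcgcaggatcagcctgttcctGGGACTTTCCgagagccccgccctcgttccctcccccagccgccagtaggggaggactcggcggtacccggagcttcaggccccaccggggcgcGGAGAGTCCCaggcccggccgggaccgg
PSMB9: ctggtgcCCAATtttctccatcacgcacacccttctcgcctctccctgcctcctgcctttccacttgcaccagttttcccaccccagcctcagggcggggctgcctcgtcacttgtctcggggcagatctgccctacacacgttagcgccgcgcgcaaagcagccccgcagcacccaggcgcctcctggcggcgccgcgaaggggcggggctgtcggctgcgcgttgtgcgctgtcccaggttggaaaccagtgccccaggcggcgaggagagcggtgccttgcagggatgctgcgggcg
TAPBP: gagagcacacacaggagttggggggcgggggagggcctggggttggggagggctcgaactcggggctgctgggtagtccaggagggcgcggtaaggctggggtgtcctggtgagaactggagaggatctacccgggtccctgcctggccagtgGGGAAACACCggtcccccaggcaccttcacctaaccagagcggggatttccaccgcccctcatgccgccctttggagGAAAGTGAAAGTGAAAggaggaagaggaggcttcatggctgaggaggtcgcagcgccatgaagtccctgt
The interferon element core was found in 5 of the 8 windows, those of B2M, TAP1, TAP2, TAPBP and ERAP1, and in 3.65% of 27305 windows of all genes. The matches overlap one another in B2M, TAP1 and TAPBP, where each window holds 2. The NF-kB form was in 4 of the 8 windows (25.1% of all) and CCAAT in 4 of the 8 (35.7% of all), and the gamma-activated sequence was in 0 of the 8 (7.88% of all). In B2M the NF-kB matches of both strands overlap. TAP1 and PSMB9 lie head to head with 488 bases between their starts, so their windows share 13 bases, and the CCAAT match of each is the same site. A match is a string of letters and was not tested as a binding site.

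GNE itself was lower after its siRNA. Its log2 values were 8.39, 9.86 and 9.57 on the siGNE arrays, against 11.12, 11.47 and 10.86 on the control arrays, and the groups did not overlap. The mean difference was -1.88, with a limma adjusted p of 0.131 without a pair term and 0.0348 with the pair as a block. By an exact permutation test (two-sided) p was 0.1, and with 3 arrays in each group no smaller p is possible.

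The class I processing genes differed between siGNE and control cells by -0.50 to 0.42 on the log2 scale over their 16 tested probe sets. Among the 16 tested probe sets, limma without the block called 0 higher and 0 lower at an adjusted p under 0.05, where 0.0408% of all tested probe sets were called. At an unadjusted p under 0.05 limma gave 1 of the 16 (6.25%), against 14.6% of all tested probe sets. With the pair as a block, limma called 0 higher and 1 lower, against 4.13% and 5.35% of all tested probe sets. At an unadjusted p under 0.05 that fit gave 5 of the 16 (31.3%), against 31.6% of all. The siGNE values lay wholly above the control values for 1 of the 16 probe sets (6.25%, against 8.39% of all) and wholly below for 0 (against 12% of all). All 3 pairs had the same sign in 9 of the 16 (56.3%, against 55.5% of all). These shares are near or below those of the whole array. Leaving out any pair of arrays from the fit with the block left 0 probe sets called on the whole array by limma (5022 to 5529 at an unadjusted p under 0.05), so no call given below from the blocked fit remained without 1 of the pairs. Taking 1 probe set for each gene, the median difference of the 8 tested genes was -0.12 on the log2 scale, beside -0.02 over 10733 tested genes. Over the 16 tested probe sets the median was -0.06. The sign depends on how the probe sets of a gene are combined: with the mean of all of them the median of the genes was 0.18. That mean also takes in probe sets under the limit of 4, and ERAP1 then falls under the limit and drops out. In a bulk culture, fewer cells of a kind and less RNA per cell cannot be told apart.

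**Figure D1:**
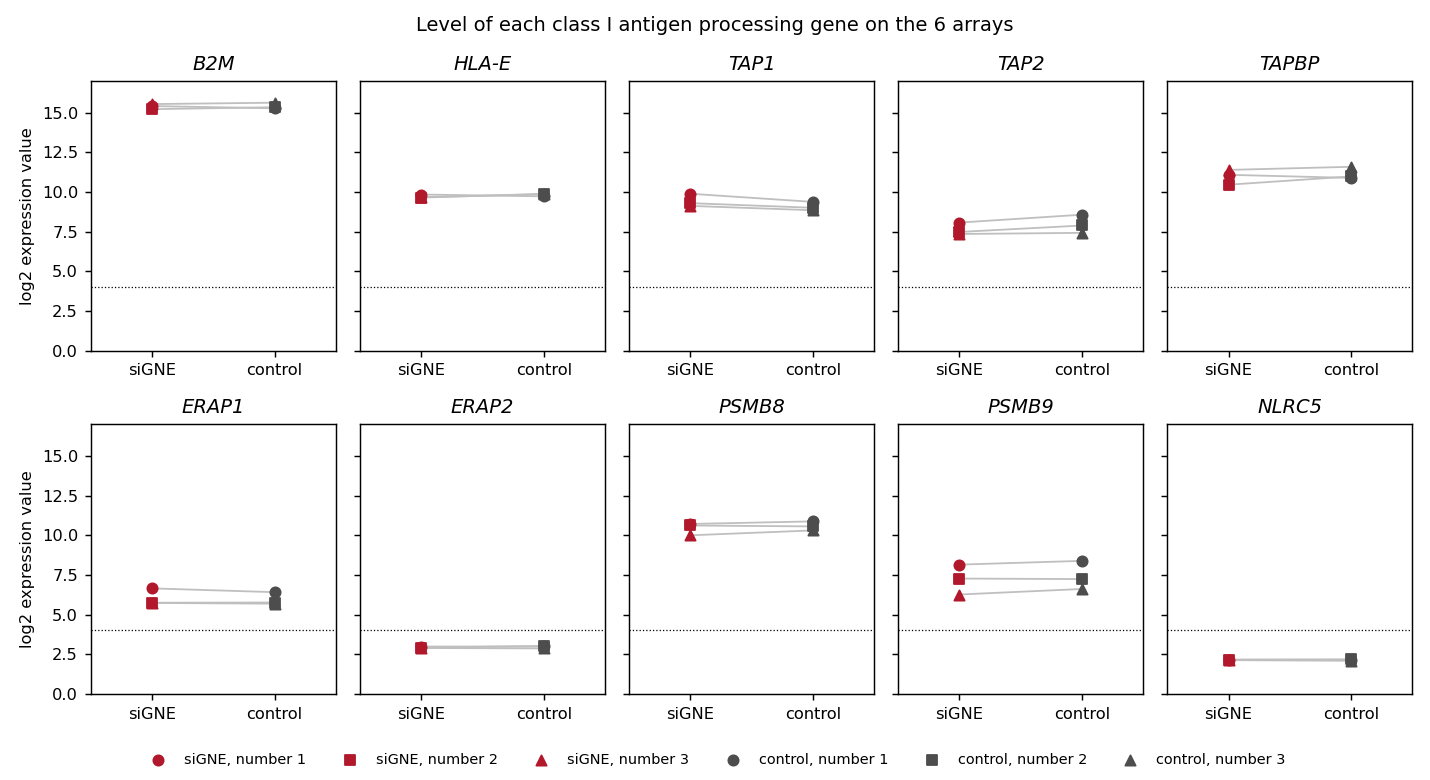
Log2 expression value (y axis) of the probe set used for each of the 10 genes on the 3 siGNE arrays (red, left) and the 3 control arrays (grey, right). Marker shapes give the array number, grey lines join the pairs, and the dotted line is the limit of 4 for testing, below which ERAP2 and NLRC5 lie on all 6 arrays.

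B2M encodes beta-2 microglobulin, the light chain that every class I molecule needs to reach the cell surface. Its probe set with the highest signal read 15.42, 15.23 and 15.55 on the siGNE arrays, against 15.28, 15.35 and 15.63 on the control arrays. The groups overlap throughout, and the pairs differed by 0.14, -0.12 and -0.09. The mean difference was -0.02, with a 95% limma interval from -0.27 to 0.23 when the pair was a block. A second probe set averaged 15.11 ± 0.05 in siGNE cells and 15.05 ± 0.08 in control cells (SD, n = 3 arrays each). Another, at background, read 2.74, 3.21 and 3.75 on the siGNE arrays, against 2.74, 2.72 and 2.72 on the control arrays, and did not pass in limma without the limit on low values (adjusted p 0.916). The highest value on any array was 16.3, so the 2 tested probe sets lie near the top of the scale, where a difference may be understated.

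HLA-E encodes a nonclassical heavy chain that presents leader peptides of other class I molecules to receptors of natural killer cells. Its 3 probe sets gave differences of either sign. The probe set 200905_x_at had 12.10, 11.98 and 12.05 on the siGNE arrays, against 11.53, 11.73 and 11.60 on the control arrays. Each siGNE value there lay above each control value. It differed by 0.42 (SE 0.12 without the block), a ratio of 1.34, with a limma adjusted p of 0.193 without and 0.0652 with the block. The probe set 200904_at had 9.85, 9.65 and 9.68 on the siGNE arrays, against 9.73, 9.89 and 9.86 on the control arrays. It differed by -0.10 (SE 0.12) with overlapping groups. The probe set 217456_x_at differed by 0.22 (SE 0.13, limma adjusted p 0.535). The ending _x_at marks probe sets prone to cross-hybridisation, here open to RNA of related class I heavy chains, and whether that RNA contributes was not tested. No HLA-E probe set passed in either fit.

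HLA-B, HLA-C and HLA-G were measured by such probe sets only, so their values as single genes are uncertain. HLA-B averaged 14.03 ± 0.16 in siGNE cells and 13.94 ± 0.12 in control cells, and HLA-C 14.00 ± 0.13 and 13.95 ± 0.08 (SD, n = 3 arrays each). HLA-G, a nonclassical chain best known from the placenta, differed by 0.20, higher in all 3 pairs, with a limma adjusted p of 0.653 without and 0.178 with the block. None of these 3 passed in either limma fit, with 0 at an unadjusted p under 0.05 in each. Over all 10733 tested genes, 1745 without and 3490 with the block had such an unadjusted p. HLA-F, at 2.31 in both groups, was not tested.

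TAP1 and TAP2 encode the subunits of the transporter that moves peptides into the endoplasmic reticulum, and their differences had opposite signs. TAP1 read 9.90, 9.30 and 9.13 on the siGNE arrays, against 9.38, 9.01 and 8.86 on the control arrays. The siGNE array was the higher of each pair, although the groups overlap. The difference was 0.36, a ratio of 1.28, with pair values of 0.51, 0.29 and 0.27. Its SE was 0.25 without and 0.10 with the block, and the limma adjusted p 0.589 and 0.0783, so TAP1 did not pass. Leaving out 1 array gave TAP1 differences from 0.13, without siGNE array 1, to 0.52, without siGNE array 3. The partner of a dropped array stays in, so differences between the array numbers enter these values. Leaving out a whole pair with the block gave 0.28, 0.39 and 0.40.

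Of the 4 TAP2 probe sets, 3 were tested. The one with the highest signal read 8.08, 7.49 and 7.36 on the siGNE arrays, against 8.57, 7.89 and 7.43 on the control arrays. The siGNE array was the lower of each pair. The difference was -0.33 (limma adjusted p 0.748 without and 0.137 with the block). It was -0.021 without control array 1 and -0.59 without control array 3, each time with the siGNE partner kept. Without a whole pair in the blocked fit the difference was -0.24, -0.28 and -0.45. The probe set 204770_at read 4.02, 3.66 and 4.06 on the siGNE arrays, against 4.67, 4.03 and 4.54 on the control arrays, all near background. The siGNE array was again the lower of each pair, and the groups overlap. The siGNE mean of 3.91 lay under the limit of 4, so the probe set was tested only through its control mean of 4.41. The probe set fell by 0.50 on the log2 scale (SE 0.10, limma adjusted p 0.0453 with the block) and is the single probe set of the class I genes that passed. Without the block limma gave an adjusted p of 0.351, and the blocked call was lost when values under 4 were set to 4 (limma adjusted p 0.143 at a difference of -0.39). The call was also lost with the block when any pair was left out, at limma adjusted p of 0.118 to 0.167. No probe set on the whole array was called in those fits. The other TAP2 probe set, 204769_s_at, differed by -0.03 (SE 0.26), so the TAP2 probe sets disagree. The within-array difference of TAP1 minus TAP2 was higher on the siGNE array by 1.01, 0.70 and 0.35 in the 3 pairs with the first TAP2 probe set, and by 0.64, 0.31 and 0.21 with 204769_s_at. That contrast was chosen after the values were seen and was not tested.

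TAPBP encodes tapasin, the chaperone that bridges empty heavy chains to the TAP transporter. Its probe set with the highest signal read 11.09, 10.47 and 11.40 on the siGNE arrays, against 10.89, 10.99 and 11.59 on the control arrays. The pairs differed in sign, and the mean difference was -0.17 (SE 0.30, limma adjusted p 0.875). The probe set 1555565_s_at read 7.86, 7.38 and 9.68 on the siGNE arrays, against 7.27, 6.97 and 9.63 on the control arrays. Both arrays of number 3 stood far above the other 4, and the siGNE array was the higher of each pair, by 0.59, 0.41 and 0.05. This difference of 0.35 did not pass (limma adjusted p 0.924 without and 0.146 with the block). The remaining probe set, 210294_at, had a mean under the limit. It read 5.07, 4.16 and 3.79 on the siGNE arrays, against 3.53, 3.34 and 3.43 on the control arrays. In limma without the limit on low values it did not pass (adjusted p 0.648).

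Among the other proteins of the loading complex and its chaperones, 0 of 6 tested genes passed in limma without the block (0 at an unadjusted p under 0.05) and 0 passed with it. The shares over all tested genes were 0.028% higher and 0% lower without the block, and 4.11% and 5.79% with it. An unadjusted p under 0.05 without the block was found for 1745 of all 10733. Calreticulin (CALR) read 7.58, 7.05 and 9.63 on the siGNE arrays, against 7.97, 7.94 and 9.38 on the control arrays. As with 1555565_s_at of TAPBP, number 3 was the highest in both groups. Calnexin (CANX) averaged 13.18 ± 0.26 and 13.19 ± 0.25, and the disulfide isomerase PDIA3 14.53 ± 0.16 and 14.56 ± 0.03, in siGNE and control cells (SD, n = 3 arrays each). TAPBPL, the tapasin-related editor of peptides, differed by 0.19 (limma adjusted p 0.916). The chaperone HSPA5 was lower in all 3 pairs, by a mean of -0.21 with groups that did not overlap, and did not pass (limma adjusted p 0.535 without and 0.176 with the block). The chaperone HSP90B1 differed by -0.12.

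PSMB8 and PSMB9 encode catalytic subunits of the immunoproteasome, which replace constitutive subunits after interferon exposure and favour peptides that class I molecules bind. PSMB8 read 10.71, 10.62 and 9.998 on the siGNE arrays, against 10.88, 10.56 and 10.31 on the control arrays. PSMB9 read 8.15, 7.27 and 6.27 on the siGNE arrays, against 8.39, 7.24 and 6.61 on the control arrays. In both genes the groups overlap, and number 1 was highest and number 3 lowest in each group. PSMB8 differed by -0.14 (95% limma interval with the block -0.41 to 0.14) and PSMB9 by -0.18 (-0.47 to 0.10). The pair values had the same sign in each pair, at -0.16, 0.06 and -0.31 for PSMB8 and -0.24, 0.03 and -0.35 for PSMB9.

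PSMB10, another catalytic subunit of the immunoproteasome, read 9.44, 9.30 and 8.81 on the siGNE arrays, against 9.72, 9.44 and 8.99 on the control arrays. Its difference of -0.20, lower in all 3 pairs, did not pass (limma adjusted p 0.806 without and 0.187 with the block). The constitutive subunits that the immunoproteasome subunits replace differed by -0.10 (PSMB5), -0.07 (PSMB6) and 0.28 (PSMB7), with limma adjusted p of 0.470, 0.667 and 0.0996 with the block. PSME1, a subunit of the interferon-inducible activator, differed by -0.24 (limma adjusted p 0.608 without and 0.149 with the block). In all, 0 of 7 tested genes of this list passed in either limma fit, with 0 and 2 at an unadjusted p under 0.05. Over all 10733 tested genes, 1745 without and 3490 with the block had such an unadjusted p. The shares of all that passed with the block were 4.11% higher and 5.79% lower.

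**Figure D2:**
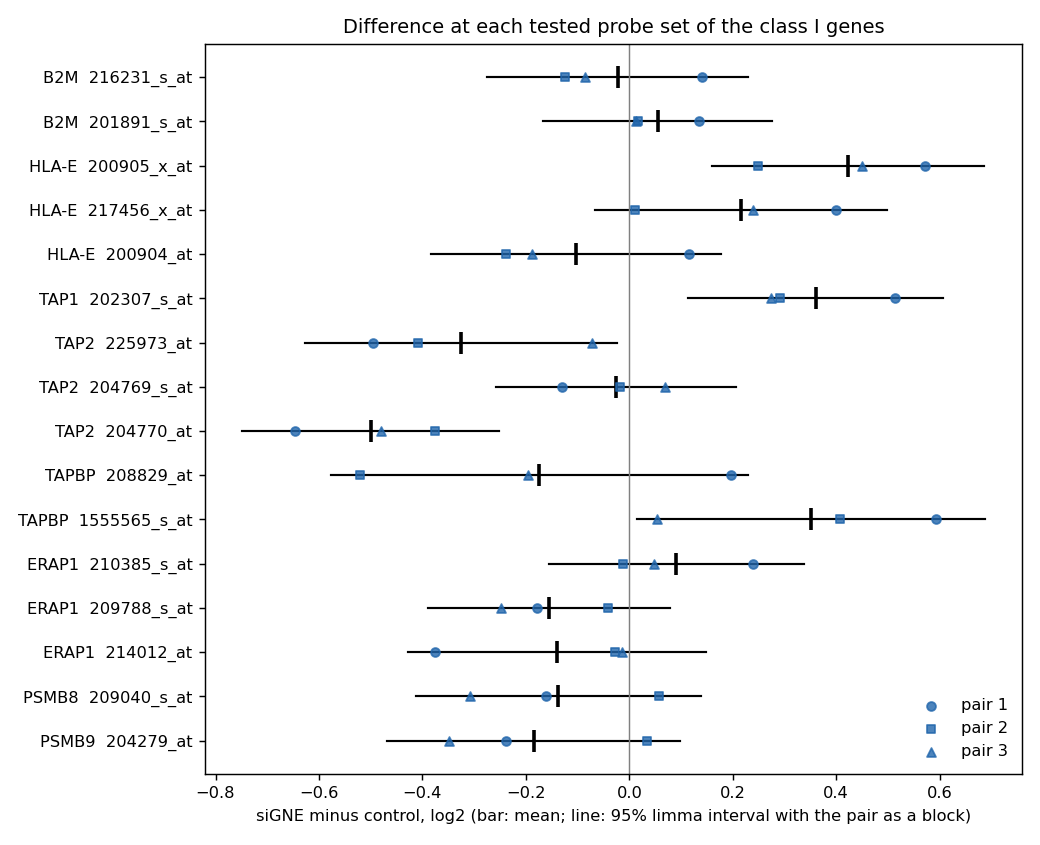
Difference of siGNE minus control (x axis, log2) at the 16 tested probe sets of the class I genes (y axis). Blue points are the 3 pairs, black bars the mean and lines the 95% limma interval with the pair as a block, and the 204770_at probe set of TAP2, at -0.50, is the one that passed.

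ERAP1 and ERAP2 encode aminopeptidases that trim peptides in the endoplasmic reticulum to the length class I molecules hold. The ERAP1 probe set with the highest signal read 6.65, 5.75 and 5.73 on the siGNE arrays, against 6.41, 5.76 and 5.69 on the control arrays. The array of number 1 was the highest in each group, and the difference was 0.09 (95% limma interval with the block -0.15 to 0.34). The other tested probe sets of ERAP1 differed by -0.16 and -0.14, at levels below 5.3, and 2 more at background were not tested. The best ERAP2 probe set read 2.98, 2.92 and 2.89 on the siGNE arrays, against 2.99, 3.02 and 2.87 on the control arrays. All 5 ERAP2 probe sets stayed below 4 on all 6 arrays, which is no measure of whether a low level changed.

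Of the other peptidases, THOP1, a cytosolic enzyme known to destroy class I peptides, read 8.25, 8.16 and 8.23 on the siGNE arrays, against 8.85, 8.65 and 8.67 on the control arrays. The groups did not overlap. THOP1 fell by 0.51 on the log2 scale in the blocked limma fit (SE 0.09, adjusted p 0.0395), to 70.3% of the control level, and did not pass without it (limma adjusted p 0.142). Bleomycin hydrolase (BLMH), which trims peptides in the cytosol, differed by -0.43 with groups that did not overlap and missed the threshold (limma adjusted p 0.216 without and 0.0568 with the block). NRDC differed by 0.18 and leucine aminopeptidase 3 (LAP3) by -0.09. Of 6 tested peptidases, 0 passed in limma without the block. An unadjusted p under 0.05 in that fit was found for 2, against 1745 of all 10733 tested genes. Only THOP1 passed with the block. Over all tested genes the shares with the block were 4.11% higher and 5.79% lower.

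NLRC5 encodes the transactivator that drives class I genes from inside the nucleus. It read 2.16, 2.16 and 2.13 on the siGNE arrays, against 2.16, 2.17 and 2.09 on the control arrays. These values are at background on every array, so a change in NLRC5 could not be seen with this probe set. RFX5, the DNA-binding partner through which NLRC5 acts on class I promoters, read 9.06, 9.78 and 9.49 on the siGNE arrays, against 9.80, 10.08 and 9.94 on the control arrays. The groups did not overlap, and the difference of -0.50 missed the threshold (limma adjusted p 0.346 without and 0.0629 with the block). NFYB, a subunit of the factor that binds CCAAT, differed by -0.60 with groups that did not overlap (limma adjusted p 0.174 and 0.0669).

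Among genes of interferon signalling and of class I transcription, 1 of 19 tested rose and 1 fell with the block, near the shares of 4.11% and 5.79% over all tested genes. IFNAR2, a subunit of the type I interferon receptor, read 6.07, 6.59 and 6.38 on the siGNE arrays, against 7.13, 7.60 and 7.27 on the control arrays. With the block IFNAR2 fell by 0.98 at a limma adjusted p of 0.0237, and without the block limma gave 0.119. IRF9, the DNA-binding part of the type I interferon complex, read 8.55, 8.59 and 8.18 on the siGNE arrays, against 7.61, 7.76 and 7.83 on the control arrays. With the block IRF9 rose by 0.71 at a limma adjusted p of 0.0496, and without the block limma gave 0.137. JAK2, a kinase of the interferon gamma receptor, differed by 0.55 and did not pass (limma adjusted p 0.247 and 0.108). IRF1, a factor known to drive the start region that TAP1 and PSMB9 share, read 8.63, 7.50 and 7.66 on the siGNE arrays, against 8.39, 7.52 and 7.59 on the control arrays. Its groups overlap, its difference was 0.10, and number 1 was the highest in each group, as for PSMB9 and ERAP1. Of the 19, 0 passed in limma without the block, with 4 at an unadjusted p under 0.05, against 1745 of all 10733 tested genes.

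Interferon-stimulated genes went both ways. Of 13 tested, 0 passed in limma without the block, with 4 at an unadjusted p under 0.05, against 1745 of all 10733 tested genes. With the block 3 rose and 3 fell, against 4.11% and 5.79% of all tested genes. The antiviral synthetase OAS1 rose by 0.69 and its relative OAS3 fell by 0.94 (limma adjusted p 0.0431 and 0.0281 with the block), and the guanylate-binding protein GBP1 fell by 1.52 (limma adjusted p 0.0256). Named after their values were seen, ISG15 (0.50) and the RNA sensor IFIH1 (0.69) also passed as higher with the block and GBP2 (-1.04) as lower, at limma adjusted p of 0.0408, 0.0281 and 0.0237. Their groups overlap, and without the block limma gave 0.448, 0.493 and 0.369. IFIT1 differed by -0.82 and missed the threshold (limma adjusted p 0.0513 with the block). The median of the 13 was 0.07.

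**Figure D3:**
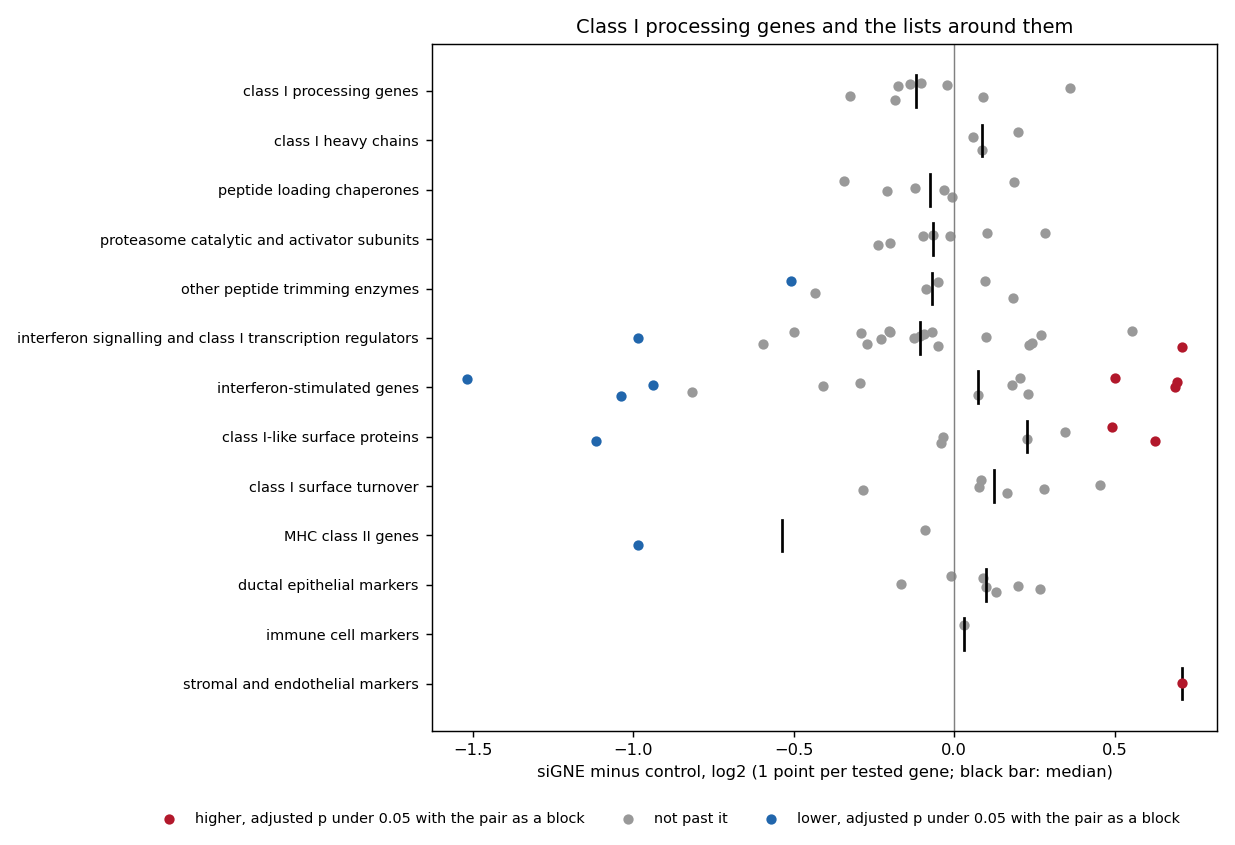
Difference of siGNE minus control (x axis, log2) for each tested gene of the class I processing genes and of 12 lists around them (y axis). Red and blue points passed at an adjusted p under 0.05 in limma with the pair as a block, grey points did not, and black bars are medians; no class I processing gene is coloured, since the dim TAP2 probe set is not the one used for the gene.

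Among class I-like surface proteins, the changes were also in both directions. HFE, which regulates iron uptake and pairs with beta-2 microglobulin, read 3.42, 4.24 and 3.76 on the siGNE arrays, against 4.74, 5.04 and 4.99 on the control arrays. Its siGNE mean of 3.81 lay under the limit of 4, so HFE was tested only through its control mean of 4.92. The blocked limma fit called it lower (adjusted p 0.0264): HFE fell by 1.12, reaching background in siGNE cells, and by 0.84 when values under 4 were set to 4. ULBP2, a stress ligand for the NKG2D receptor of natural killer cells, read 11.88, 11.45 and 11.13 on the siGNE arrays, against 11.10, 10.82 and 10.67 on the control arrays. The blocked limma fit put its rise at 0.62 (adjusted p 0.0356). PROCR, the endothelial protein C receptor, rose by 0.49 in the blocked limma fit (adjusted p 0.0393), and MR1, which presents vitamin metabolites, differed by 0.35 and did not pass. Of 7 tested genes, 0 passed in limma without the block. An unadjusted p under 0.05 in that fit was found for 2, against 1745 of all 10733 tested genes. With the block 2 rose and 1 fell, against 4.11% and 5.79% of all tested genes.

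Genes of the class I surface turnover list gave 0 of 6 past the threshold in either limma fit, with 1 and 2 at an unadjusted p under 0.05. Over all 10733 tested genes, 1745 without and 3490 with the block had such an unadjusted p. The shares of all that passed with the block were 4.11% higher and 5.79% lower. SUSD6, an adaptor for class I degradation, differed by 0.46, higher in all 3 pairs (limma adjusted p 0.292 without and 0.0571 with the block), and its partner TMEM127 by 0.28 (limma adjusted p 0.104 with the block). The ubiquitin ligase MARCHF9 differed by -0.28 and IRGQ by 0.16.

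Levels of the class I genes also varied with the array number. The means of the 3 numbers, each over its siGNE and its control array, spanned 1.83 on the log2 scale for PSMB9, and 40 of 10733 tested genes (0.373%) spanned as much or more. The span was 0.93 for TAP2, 0.82 for ERAP1, 0.77 for TAPBP, 0.65 for TAP1, 0.64 for PSMB8, 0.30 for B2M and 0.02 for HLA-E. Its median was 0.71 over the 8 tested genes, beside 0.35 over all tested genes. The span exceeded the size of the siGNE difference for 7 of the 8 genes (87.5%), with HLA-E the exception, and for 71.1% of all tested genes. Over probe sets the same held for 12 of the 16 (75%), against 74.6% of all tested probe sets. PSMB9, PSMB8, TAP2, ERAP1 and TAP1 were highest on number 1 in each group, while B2M and TAPBP were highest on number 3 in each group. The labels do not say what the numbers stand for.

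**Figure D4:**
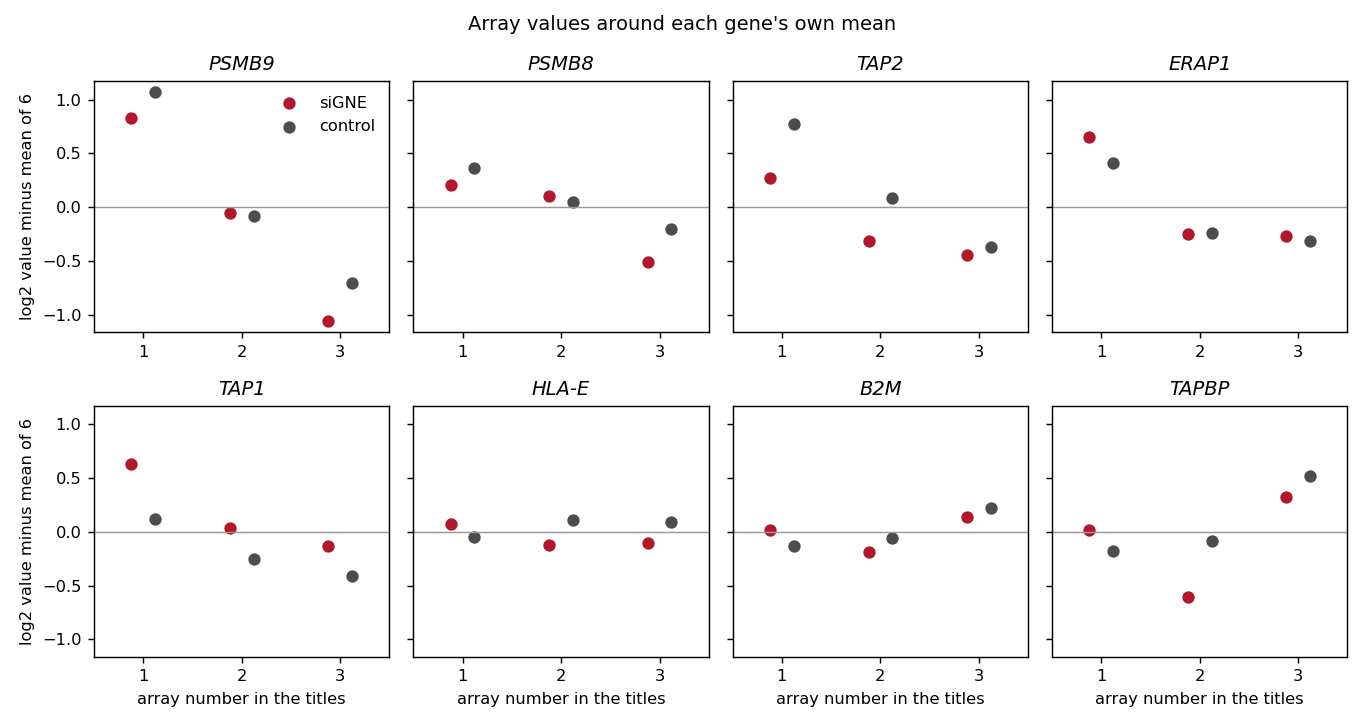
Log2 value of each array minus the gene's mean over the 6 arrays (y axis) by array number (x axis), for siGNE (red) and control (grey) arrays of the 8 tested genes. PSMB9 spans 1.83 between the means of number 1 and number 3 in the same order in each group, while the siGNE and control points of a number lie close together.

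The 3 other tested genes whose values over the 6 arrays were most like the mean standardised value of the 8 genes were VPS26B, APLP1 and PDIA3, with Pearson's r of 0.996, 0.987 and 0.978. This is a description over 6 paired arrays, which are not independent, and 64 of 10725 genes had an r over 0.9. The 8 genes did not all vary together, with Pearson's r from -0.74 (B2M with PSMB8) to 0.97 (B2M with TAPBP). Among PSMB9, PSMB8, TAP2, ERAP1 and TAP1 every r was positive, from 0.51 (TAP1 with TAP2) to 0.95 (PSMB8 with PSMB9). Likeness to the mean of the 8 genes is therefore not likeness to each gene.

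The arrays carried the markers of epithelial cells. All 7 ductal epithelial markers were above 4 on every array, with a mean log2 value over the list between 13.96 and 14.14 on siGNE arrays and between 13.90 and 14.04 on control arrays. Of the 7, 5 had positive and 2 negative differences, from 0.27 for KRT8 to -0.17 for MUC1, and none passed in either limma fit. Of 6 immune cell markers, 5 were at or under 4 on every array, PTPRC and CD3E among them. The exception was lysozyme (LYZ), at 11.10 ± 0.39 in siGNE cells and 11.07 ± 0.79 in control cells (SD, n = 3 arrays each), an enzyme that some epithelia also make. Of 8 stromal and endothelial markers, 7 were at or under 4 on every array. The exception was a COL1A1 probe set that the blocked limma fit called higher (0.71, adjusted p 0.0441), and the part of stromal RNA in the results was not tested. The mean log2 value over the stromal list lay between 3.40 and 3.56 on siGNE arrays and between 3.33 and 3.51 on control arrays, and over the immune list between 3.82 and 3.94 and between 3.73 and 3.96. The class II genes HLA-DRA, HLA-DRB1, HLA-DPA1, CD74 and CIITA were at or under 4 on every array. HLA-DMA, which loads class II molecules, fell by 0.98 in the blocked limma fit (adjusted p 0.0242), at 4.19 in siGNE and 5.17 in control cells, near background, and that call was lost when values under 4 were set to 4. HLA-DMB differed by -0.09.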

How the data were processed

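Total RNA of 3 siGNE and 3 control Capan-1 samples was measured on 1-colour Affymetrix arrays. The authors deposited log2 values normalised with GCRMA, per the submitters' processing notes (version not given in the sources used here). Groups and pair numbers came from the sample titles. The array medians were 2.96 to 3.02, and 40.3% to 40.6% of probe sets exceeded 4. The number of arrays limits the precision.

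Of 54675 probe sets, 41097 have 1 gene in the platform annotation, 1801 several and 11777 none. limma 3.58.1 in R 4.3.3 (lmFit, eBayes) was fitted to the 22085 probe sets with a mean above 4, without 62 control probe sets, and p-values were adjusted by Benjamini-Hochberg over all of them. A gene was represented by its probe set with the highest mean, avoiding the ending _x_at where another existed. The main fit had no block. In the blocked fit the title numbers pair the arrays: deviations from the group means correlated at 0.58, 0.71 and 0.83 for the same number and -0.64 to 0.17 for different numbers. Intervals and SEs are limma's.

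Named were the 10 genes with all their probe sets, from each list up to 4 genes lowest in unadjusted p without the block, a fixed set of named pathway genes (HLA-B, HLA-C, IRF1, RFX5, PSMB5, PSMB6, PSMB7, PSMB10, PSME1, CALR, CANX and PDIA3) and the 3 genes most like the set. The members and lists were chosen with earlier results of these data known. The scripts were tested on simulated data. Alternatives covered the low-value filter and floor, normalisation, variance model, array weights, probe set per gene, threshold, block and leaving out arrays. Some genes of the lists are not reported here.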

Additional observations from a re-analysis of the deposited data

Results flagged for a closer look

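A signal appeared in a TAPBP probe set under the limit on low values. The probe set 210294_at had a mean under 4 over the 6 arrays, yet averaged 4.34 ± 0.66 on the siGNE arrays and 3.44 ± 0.09 on the control arrays (SD, n = 3 each). The siGNE array was the higher of each pair, by 1.54, 0.82 and 0.35, and the groups did not overlap. In limma without that limit the difference of 0.90 did not pass (adjusted p 0.648, unadjusted p 0.0469), and the TAPBP probe set with the highest signal differed by -0.17.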

How the results depend on the processing

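Low signal limits the dim genes: ERAP2 and NLRC5 lay at background. The limma intervals of the 16 tested probe sets reached 0.27 to 2.14 log2 units to each side without the block. With it they reached 0.22 to 0.40. The widest without the block was not at a dim probe set but at 1555565_s_at of TAPBP, with means of 8.31 in siGNE and 7.96 in control cells. The block moved the calls most. It called 913 probe sets higher and 1182 lower on the whole array, against 9 and 0 without it. Among the 16 probe sets of the class I genes it called 1 lower, with quantile normalisation also 1 lower, and at an adjusted p under 0.1 it called 2 higher and 1 lower, against 0 and 0 without it. Over the lists around them, 7 higher and 7 lower were called with the block, against 0 and 0 without it. Over all 10733 tested genes it called 441 and 621, against 3 and 0. Tested in the lists were 3 class I heavy chains, 6 chaperones, 7 proteasome subunits, 6 peptidases and 19 signalling and transcription genes. There were also 13 interferon-stimulated genes, 7 class I-like proteins and 6 surface turnover genes. The rest were 2 class II, 7 epithelial, 1 immune and 1 stromal gene. The lists gave 8 and 8 with the block and quantile normalisation, and 7 and 6 with the block and values under 4 set to 4. They gave 9 and 12 with the block at an adjusted p under 0.1, and 1 and 1 with array weights. GNE passed with the block at -1.88, also with values under 4 set to 4 or at an adjusted p under 0.1, and at -1.86 with quantile normalisation. Other whole-array counts, higher and lower, were 142 and 134 with array weights, 40 and 9 with the eBayes trend, 29 and 6 with a mean above 6, 19 and 1 with quantile normalisation, 2 and 1 with no filter, and 121 and 98 at an adjusted p under 0.1.

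Averaging all probe sets of a gene moved the median difference of the class I genes to 0.18, and the differences of B2M to 0.18, HLA-E to 0.18, TAPBP to 0.36, CANX to 0.0089 and LYZ to -0.12. These averages take in 232311_at of B2M (0.51) and 210294_at of TAPBP (0.90), both under the limit on low values. That of HLA-E takes in 200905_x_at (0.42) and 217456_x_at (0.22). With the most variable probe set, TAPBP was at 0.35 and LYZ at -0.26. Array weights turned CANX to 0.0024, LYZ to -0.0086 and 204769_s_at of TAP2 to 0.010, and quantile normalisation turned that probe set to 0.018, with the block too. Beyond what these averages hold, the cause of the shifts was not tested.

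Leaving out 1 array, or 1 pair with the block, called 0 probe sets of the class I genes and 0 genes of the lists each time. It called 0 on the whole array too, so these counts tell nothing about the class I genes. With 1 array left out its partner stays in, so differences between the array numbers enter the ranges that follow. The median ranged from -0.22 to 0.0030 and GNE from -2.17 to -1.44. Differences that changed sign, in 19 of 69 results, ranged from -0.10 to 0.083 for B2M, -0.38 to 0.085 for TAPBP, -0.34 to 1.19 for its 1555565_s_at, -0.21 to 0.21 for 204769_s_at of TAP2, -0.27 to 0.085 for PSMB8, -0.64 to 0.30 for PSMB9, -0.21 to 0.32 for ERAP1, -0.36 to 0.056 for its 209788_s_at and -0.23 to 0.0097 for its 214012_at. Among the other genes they ranged from -0.28 to 0.082 for HSP90B1, -1.11 to 0.18 for CALR, -0.15 to 0.56 for TAPBPL, -0.18 to 0.0056 for LAP3, -0.47 to 0.25 for HLA-DMB, -0.42 to 0.29 for LYZ, -0.25 to 0.38 for IRF1, -0.15 to 0.013 for PSMB6, -0.15 to 0.14 for CANX and -0.13 to 0.016 for PDIA3.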
